A study of Mus musculus with 9 samples.

Results

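Cells that carry Nf1 loss were compared with cells that carry lgT/Ras, both being tumour cells derived from mouse neural stem cells of the subventricular zone. The comparison uses 6 of the 9 RNA sequencing libraries of the series, chosen by their labels: 3 cultures of genotype shp53, Nf1-/-, CDK4 (NF1 1, 2 and 3) against 3 cultures of genotype lgT/Ras (LTR 1, 2 and 3). All genes were compared, with and without NF1 2, which stood apart from the other 5 libraries. The remaining 3 libraries are wild-type neural stem cells (NSC 1, 3 and 5), given here as background. Every culture was grown in stem cell medium for up to 10 passages. The cultures are described as independent, but whether each was transformed on its own, and how Nf1 was deleted, is not stated in the labels. Expression constructs have no count column of their own, so the Ras, CDK4 and hairpin constructs of the labels were not read apart from the mouse genes. By their labels the groups differ in shp53, CDK4 and lgT as well as in Nf1 and Ras. The parts of these changes cannot be told apart in this comparison. Below, NF1 and LTR stand for the libraries that carry these labels.

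The gene Nf1 encodes neurofibromin, a GTPase-activating protein that returns Ras from its active, GTP-bound state to its inactive, GDP-bound state. Loss of neurofibromin and expression of an oncogenic Ras are separate ways to raise signalling through the MAP kinase cascade, which ends in the kinases ERK and RSK and in feedback genes such as the Sprouty and Dusp families. In glioma, changes of this pathway are commonly found together with loss of p53 function and with loss of RB control, to which CDK4, the kinase partner of the D cyclins, belongs.

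No gene passed the test over all 3 cultures a side, while 34 genes passed once NF1 2 was left out. Promoters of these genes (250 bases before to 50 after the first listed start, from RefSeq on GRCm38.p6) were found for 25 of the 34, and 3 are printed. Eif2ak4 is shown as the gene with the smallest adjusted p, and Nkx2-2 and Igf2bp3 as called list members whose windows held a searched motif. Eif2ak4 lies at chr2:118388367-118388666 on the plus strand, Nkx2-2 at chr2:147186353-147186652 on the minus strand and Igf2bp3 at chr6:49214905-49215204 on the minus strand. Capitals mark motif matches.
Eif2ak4: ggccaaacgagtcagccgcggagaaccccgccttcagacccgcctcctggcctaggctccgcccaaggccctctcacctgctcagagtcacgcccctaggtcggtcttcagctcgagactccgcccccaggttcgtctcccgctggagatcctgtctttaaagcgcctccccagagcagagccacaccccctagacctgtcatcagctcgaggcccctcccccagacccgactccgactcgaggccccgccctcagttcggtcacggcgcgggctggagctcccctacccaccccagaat
Nkx2-2: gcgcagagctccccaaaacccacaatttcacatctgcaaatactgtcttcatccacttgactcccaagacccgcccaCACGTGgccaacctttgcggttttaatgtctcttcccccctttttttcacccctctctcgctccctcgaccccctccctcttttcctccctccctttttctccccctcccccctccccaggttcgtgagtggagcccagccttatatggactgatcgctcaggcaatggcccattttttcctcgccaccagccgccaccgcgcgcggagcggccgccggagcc
Igf2bp3: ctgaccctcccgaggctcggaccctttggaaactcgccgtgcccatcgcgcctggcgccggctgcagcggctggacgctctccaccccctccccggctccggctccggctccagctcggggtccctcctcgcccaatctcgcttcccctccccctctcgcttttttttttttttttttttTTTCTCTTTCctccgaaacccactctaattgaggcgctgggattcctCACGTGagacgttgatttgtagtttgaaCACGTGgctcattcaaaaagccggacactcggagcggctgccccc

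The motifs searched on both strands were TGACTCA (AP-1, the dimer of Fos and Jun proteins at the end of MAP kinase signalling), GAAA, any 2 bases and GAAA again (interferon response), TTTCCCGC (E2F) and CACGTG (E-box). AP-1 was found in the window of 0 of 5 called genes higher in NF1 and 0 of 20 lower ones, against 3.63% of the 10914 promoters matched among all genes tested. The E-box was found in Nkx2-2 among the higher genes and in Igf2bp3 and Ltbr among the lower ones, against 9.91% of all promoters. Igf2bp3 also held 1 interferon response match (2.78% of all promoters) and Frk held 1 E2F match (2.02%). A match is a description of the letters in this window.

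The 6 libraries had 28600479 (LTR 2) to 34230788 (NF1 1) counts and carry 1 lane number in the file header, while the NSC libraries carry another. NF1 2 was the highest of the 6 libraries for 38% of the 15696 genes tested and the lowest for 26.7%, and the next most frequent extreme was LTR 2 with 19.6% and 21.1%. The first principal component of log2 CPM (counts over the TMM-scaled library size) held 48.6% of the variance and placed NF1 2 at 152 and the other 5 libraries between -53.6 and -10.5. On the next component (21.5%) the LTR libraries lay at 17 to 73.1, NF1 1 and NF1 3 at -56.2 and -58.4, and NF1 2 at -0.803. Among genes of at least 8 CPM, NF1 1 and NF1 3 differed at least 2-fold for 3.35%, the LTR libraries among themselves for 1.89% to 11.2%, and NF1 1 or NF1 3 from an LTR library for 3.39% to 10.2%. NF1 2 differed at least 2-fold from NF1 1 and NF1 3 for 18% and 32%, from the LTR libraries for 22.4% to 34.3%, and from the NSC libraries for 19.7% to 22%. Correlations of log2 CPM across genes, which are no independent replicates, were 0.975 between NF1 1 and NF1 3, 0.949 to 0.97 between these and LTR, 0.897 and 0.926 between NF1 2 and its own group, 0.898 to 0.916 between NF1 2 and LTR, and 0.87 to 0.876 between NF1 2 and NSC. By the 2-fold share NF1 2 was thus nearer to NSC than to LTR, and by correlation nearer to LTR. The labels give no difference in how NF1 2 was made or grown, and whether its label holds was not tested, which bears on every value given for NF1 as a group. No library was a copy of another (chi-square per degree of freedom 42.9 to 436 within these 2 groups).

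**Figure D1:**
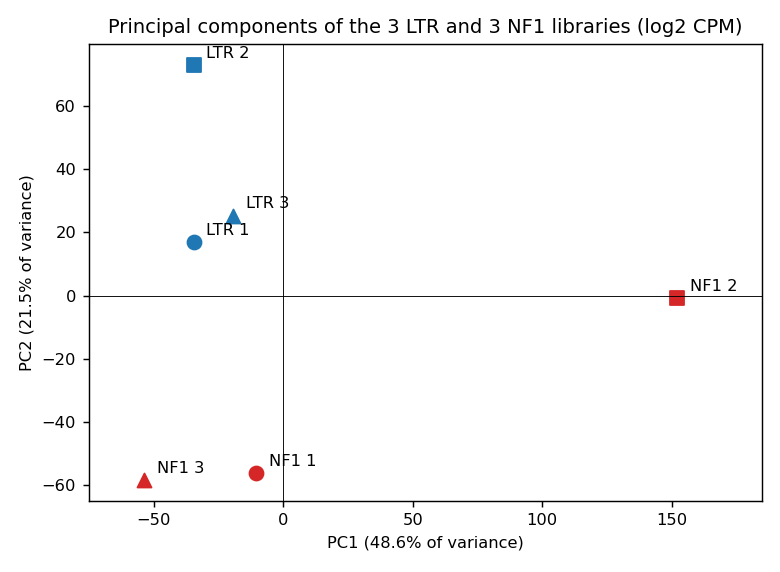
Principal components of the log2 CPM of the 3 LTR (blue) and 3 NF1 (red) libraries, each point 1 library, with the share of the variance on each axis. NF1 2 lies at 152 on the first component, apart from the other 5 libraries, and the second component separates LTR from NF1 1 and NF1 3.

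None of the genes named in the labels passed the test. Nf1 (GRCm38 chromosome 11, 79339693 to 79581612) measured 80.0, 40.3 and 58.0 CPM in LTR 1, 2 and 3 and 59.0, 97.2 and 40.1 CPM in NF1 1, 2 and 3. The groups overlapped, and NF1 2 was the highest of the 6 tumour libraries, within the 82.5 to 114 CPM of NSC. For all 3 cultures the log2 fold change was 0.14 ± 0.35 (SE, n = 3 a side, edgeR adjusted p = 0.928) or -0.26 ± 0.30 without NF1 2 (adjusted p = 0.981, range 0.634 to 1.0). Its sign thus turned with 1 library. Counts per gene include any exons that a deletion leaves, so this level does not check the genotype.

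Trp53 (chromosome 11, 69580359 to 69591873), which encodes p53, measured 223, 281 and 255 CPM in LTR and 217, 151 and 221 CPM in NF1. All NSC libraries lay below both tumour groups, at 101 to 114 CPM. Each NF1 library lay below each LTR library, but the difference did not pass (-0.37 ± 0.20, adjusted p = 0.567, or -0.20 ± 0.17 when NF1 2 is left out, adjusted p = 0.938, range 0.269 to 1.0). Cdk4 (chromosome 10, 127063534 to 127067920, overlapping Tspan31) measured 1015, 935 and 1020 CPM in LTR and 795, 393 and 1124 CPM in NF1. NF1 2 was the lowest and NF1 3 the highest of the 6 tumour libraries. NF1 2 lay within the NSC range, with NSC 1, 3 and 5 at 334, 456 and 325 CPM. The fitted difference was -0.36 ± 0.34 (adjusted p = 0.758) or -0.04 ± 0.24 without NF1 2 (adjusted p = 1.0, range 0.198 to 1.0).

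Hras measured 92.3, 165 and 104 CPM in LTR and 122, 167 and 151 CPM in NF1 (0.28 ± 0.25, adjusted p = 0.741). Nras differed by 0.01 ± 0.15 (adjusted p = 0.992). Of the 18 tested members of the list of Ras genes and Ras GTPase activators, none passed with or without NF1 2.

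Across all genes, the comparison of 3 NF1 with 3 LTR cultures gave 0 calls (0%) of 15696 genes by the edgeR quasi-likelihood test, with a smallest adjusted p of 0.122 for Rps6ka6. At an unadjusted p under 0.05 there were 1596 genes (10.2%), 1156 of them higher (7.36%) and 440 lower (2.8%) in NF1. The libraries did not overlap for 1955 genes (12.5%), of which 1132 (7.21%) were higher and 823 (5.24%) lower in NF1. Fitted differences were large in many of the 15696 genes, with 1723 at least 2-fold higher and 610 at least 2-fold lower, beside a median SE of 0.359 on the log2 scale. These counts include NF1 2. Without it the median absolute log2 fold change moved from 0.301 to 0.237, and the median log2 fold change from 0.0565 to 0. Limma-voom called 0 genes higher and 1 lower. Other tools differed: DESeq2 called 198 genes higher (1.26%) and 132 lower (0.841%), 330 in all (2.1%), and limma-voom with a weight for each library's quality called 540 higher (3.44%) and 517 lower (3.29%), 1057 in all (6.73%). That last fit gave NF1 2 the lowest weight of the 6 libraries, 0.158, against 0.346 to 3.55 for the others. Of the 330 DESeq2 calls, 257 were also called with the quality weights, and 191 (57.9%) were called by DESeq2 without NF1 2.

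Without NF1 2, 34 of 16343 genes passed (0.208%), 7 higher (0.0428%) and 27 lower (0.165%) in NF1, all of them at least 2-fold. At an unadjusted p under 0.05 there were then 1395 genes (8.54%), 571 higher (3.49%) and 824 lower (5.04%), so that the split between higher and lower turned with this 1 library. All 34 were also among the 1057 genes called with the quality weights, and 17 of them were called by DESeq2 over all 9 libraries. Only 15 of the 34 (44.1%) were also called by edgeR without NF1 2 when the NSC libraries were left out too. With no filter on low counts, 11 of them (32.4%) were called. NF1 2 lay on the same side of the LTR range as its group for 6 of the 7 higher genes and for 14 of the 27 lower ones, within the LTR range for 1 and 6, and on the other side for 7 lower genes. NSC lay above LTR and above NF1 1 and NF1 3 for 4 of the 7 higher and 14 of the 27 lower genes. NF1 2 is left out of these counts, and it lay above every NSC library for Pcdhga11 and Pcdhga7. The fit without NF1 2 takes the spread of each gene as shared by the 3 groups.

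**Figure D2:**
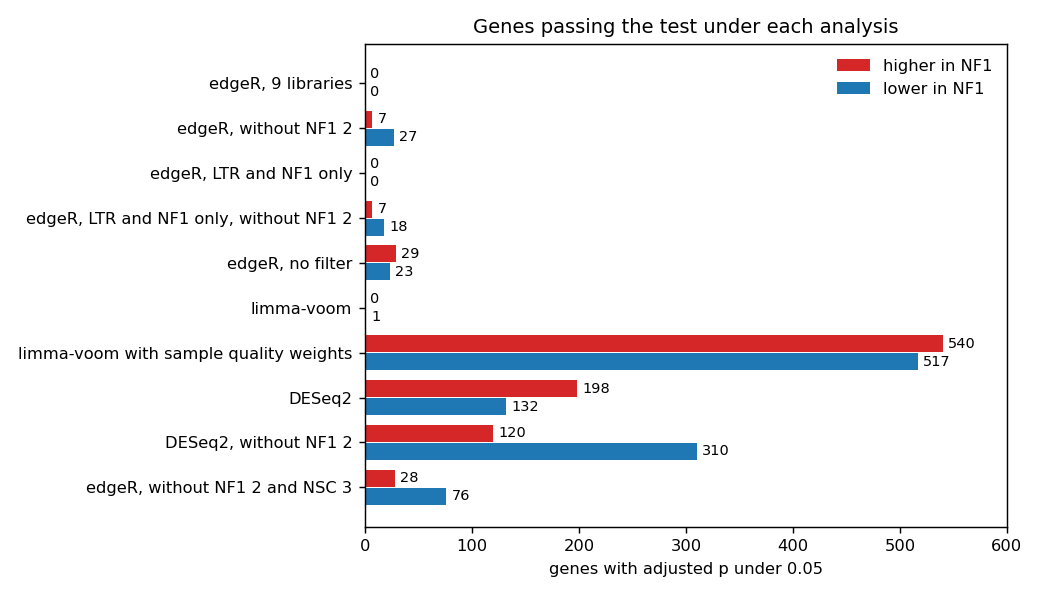
Number of genes with an adjusted p under 0.05 that were higher (red) or lower (blue) in NF1 than in LTR, for 10 analyses. The edgeR test over 9 libraries gave 0 and 0, the same test without NF1 2 gave 7 and 27, and the quality weights gave 540 and 517.

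Eif2ak4 (chromosome 2, 118388618 to 118475234) had the smallest adjusted p without NF1 2. It encodes GCN2, the kinase that senses uncharged tRNA and phosphorylates the initiation factor eIF2α. It measured 32.7, 22.9 and 29.9 CPM in LTR, 297, 39.15 and 441 CPM in NF1, and 23.01 to 38.0 CPM in NSC. NF1 1 and NF1 3 were more than any other library by a wide margin, while NF1 2 lay just above the LTR range. The fitted difference was 3.70 ± 0.28 without NF1 2 (adjusted p = 0.00361) and 3.18 ± 0.69 with it (adjusted p = 0.226, range over alternatives 4.87e-29 to 0.714). Genes downstream of this kinase, in the list of Atf4, serine and amino acid genes, had 0 of 19 tested members passing with or without NF1 2, with a median log2 fold change of 0.07 and -0.12. Psat1, a serine synthesis enzyme of that list, measured 478 to 886 CPM in LTR and 609, 349 and 815 CPM in NF1.

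The other higher genes without NF1 2 were low in the LTR cells. Nkx2-2 (chromosome 2, 147177546 to 147194243, overlapping Nkx2-2os), a transcription factor of ventral and oligodendrocyte progenitors, measured 0.03 to 0.06 CPM in LTR, 0.493, 2.91 and 0.478 CPM in NF1 and 23.7 to 34.9 CPM in NSC. Every NF1 library was above every LTR library and far below every NSC library (3.41 ± 0.45 without NF1 2, adjusted p = 0.0285, and 4.81 ± 0.89 with it, adjusted p = 0.205, range 0.000192 to 0.613). Rgs4 (chromosome 1, 169741477 to 169747642), a GTPase activator for G protein α subunits, measured 0.03 to 0.153 CPM in LTR and 6.52, 5.96 and 1.95 CPM in NF1. All 3 NF1 cultures were above LTR (5.39 ± 0.84, adjusted p = 0.0496, and 5.56 ± 0.83 with NF1 2, adjusted p = 0.179, range 2.31e-08 to 0.518). Limch1 (chromosome 5, 66745827 to 67057158), an activator of non-muscle myosin II, measured 0.191 to 0.652 CPM in LTR, 2.84, 8.996 and 2.22 CPM in NF1 and 174 to 181 CPM in NSC (2.33 ± 0.35 without NF1 2, adjusted p = 0.0483, range 4.08e-08 to 0.798).

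Protocadherins of the gamma A cluster, adhesion molecules of which neural cells express varying sets, were also higher. Pcdhga11 (chromosome 18, 37755731 to 37841873) measured 0.148 to 0.343 CPM in LTR and 3.42, 15.2 and 1.84 CPM in NF1, and Pcdhga7 measured 0.267 to 0.448 CPM in LTR and 4.75, 17.0 and 2.05 CPM in NF1. NSC libraries held 11.1 to 15.0 CPM of Pcdhga11, near the level of NF1 2. Both share their last exons with the rest of the cluster, and how the authors' counting treated reads of shared exons is not stated. Their adjusted p was 0.0285 each without NF1 2 and 0.187 and 0.179 with it (range over alternatives 3.74e-09 to 0.578 and 3.47e-09 to 0.613). Cyp2c55 (chromosome 19, 39007019 to 39042693, overlapping Gm23800), a cytochrome P450, followed the NF1 1 and NF1 3 pattern of Eif2ak4, with 4.69, 0.384 and 6.18 CPM in NF1 against 0.267 to 0.415 CPM in LTR (adjusted p = 0.0473 without NF1 2 and 0.338 with it, range 4.49e-08 to 0.956).

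Among the lower genes, Rps6ka6 (chromosome X, 111388192 to 111537959) was the most even. It encodes RSK4, a member of the ribosomal S6 kinase family that acts below ERK. It measured 62.6, 69.5 and 64.5 CPM in LTR, 16.4, 18.2 and 18.5 CPM in NF1 and 25.5 to 40.8 CPM in NSC. All NF1 libraries lay together, NF1 2 included, at 3.7-fold below LTR (-1.89 ± 0.22, adjusted p = 0.122 over 9 libraries, or -1.91 ± 0.25 when NF1 2 is left out, adjusted p = 0.0285, range 5.79e-12 to 0.518). It passed under 8 of 24 alternatives.

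Lhx1 (chromosome 11, 84518284 to 84525535), a LIM homeobox transcription factor of early development, had no count in any NF1 or NSC library and 24.0, 9.27 and 8.001 CPM in LTR. Against a floor of 3 counts over the NF1 group it was at least 435-fold lower in NF1 (adjusted p = 0.179 over 9 libraries and 0.0434 without NF1 2, range 7.78e-13 to 0.518). Ccnb1ip1 (chromosome 14, 50789248 to 50807732), a gene of meiotic crossing over that overlaps Rpph1, likewise had no count in NF1 and 8.72, 0.61 and 7.79 CPM in LTR, at least 181-fold lower, and did not pass with or without NF1 2 (adjusted p = 0.205 and 0.113, range 8.76e-07 to 0.578). It was named after its values were seen.

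Egfr (chromosome 11, 16752203 to 16918158), the receptor for EGF, measured 10.3, 6.71 and 9.97 CPM in LTR, 2.23, 5.31 and 1.84 CPM in NF1 and 174 to 210.4 CPM in NSC. The tumour groups did not overlap, and both lay far below the stem cells (-2.14 ± 0.25 without NF1 2, adjusted p = 0.0244, and -1.52 ± 0.38 with it, adjusted p = 0.297, range 1.14e-10 to 1.0). Cbr1 (chromosome 16, 93605853 to 93610505), a carbonyl reductase, measured 30.1, 33.0 and 27.1 CPM in LTR and 7.53, 20.5 and 6.18 CPM in NF1. NF1 2 lay between its own group and LTR (-2.13 ± 0.26 without it, adjusted p = 0.0253, and -1.40 ± 0.42 with it, adjusted p = 0.36, range 2.31e-12 to 1.0). Gldc (chromosome 19, 30098447 to 30175429), the decarboxylase of the glycine cleavage system, measured 24.6, 20.1 and 25.4 CPM in LTR and 8.38, 8.68 and 4.37 CPM in NF1, with NF1 2 inside its group (-1.87 ± 0.29 without NF1 2, adjusted p = 0.0483, and -1.71 ± 0.27 with it, adjusted p = 0.179, range 1.8e-07 to 0.714).

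Gjc1 (chromosome 11, 102799579 to 102819700), which encodes the gap junction protein connexin 45, was the one gene among the 27 called lower for which NF1 2 lay below both others of its group without a tie, at 21.97, 2.11 and 25.02 CPM in NF1 against 57.5, 61.7 and 60.4 CPM in LTR (-1.35 ± 0.19 without NF1 2, adjusted p = 0.0395, and -1.87 ± 0.66 with it, adjusted p = 0.403, range 3.47e-09 to 1.0). Igf2bp3 (chromosome 6, 49085223 to 49214957, overlapping Malsu1), an oncofetal mRNA-binding protein, measured 4.86, 1.72 and 5.05 CPM in LTR and 0.029, 0.48 and 0.068 CPM in NF1. Over NF1 1 and NF1 3 that is 3 counts in all, a ratio of 82.4 with an exact 95% counting interval of 28.2 to 400 (adjusted p = 0.0269 without NF1 2 and 0.213 with it, range 4.08e-08 to 0.694). Itpripl2 measured 6.40 to 9.40 CPM in LTR and 0.116, 3.17 and 0 CPM in NF1 (adjusted p = 0.00753 without NF1 2 and 0.459 with it, range 6.93e-16 to 1.0). Mical1, an oxidoreductase that disassembles actin filaments and overlaps Smpd2, measured 6.40 to 12.4 CPM in LTR and 0.319, 1.99 and 0.102 CPM in NF1 (adjusted p = 0.0216 without NF1 2 and 0.298 with it, range 2.72e-16 to 0.908).

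**Figure D3:**
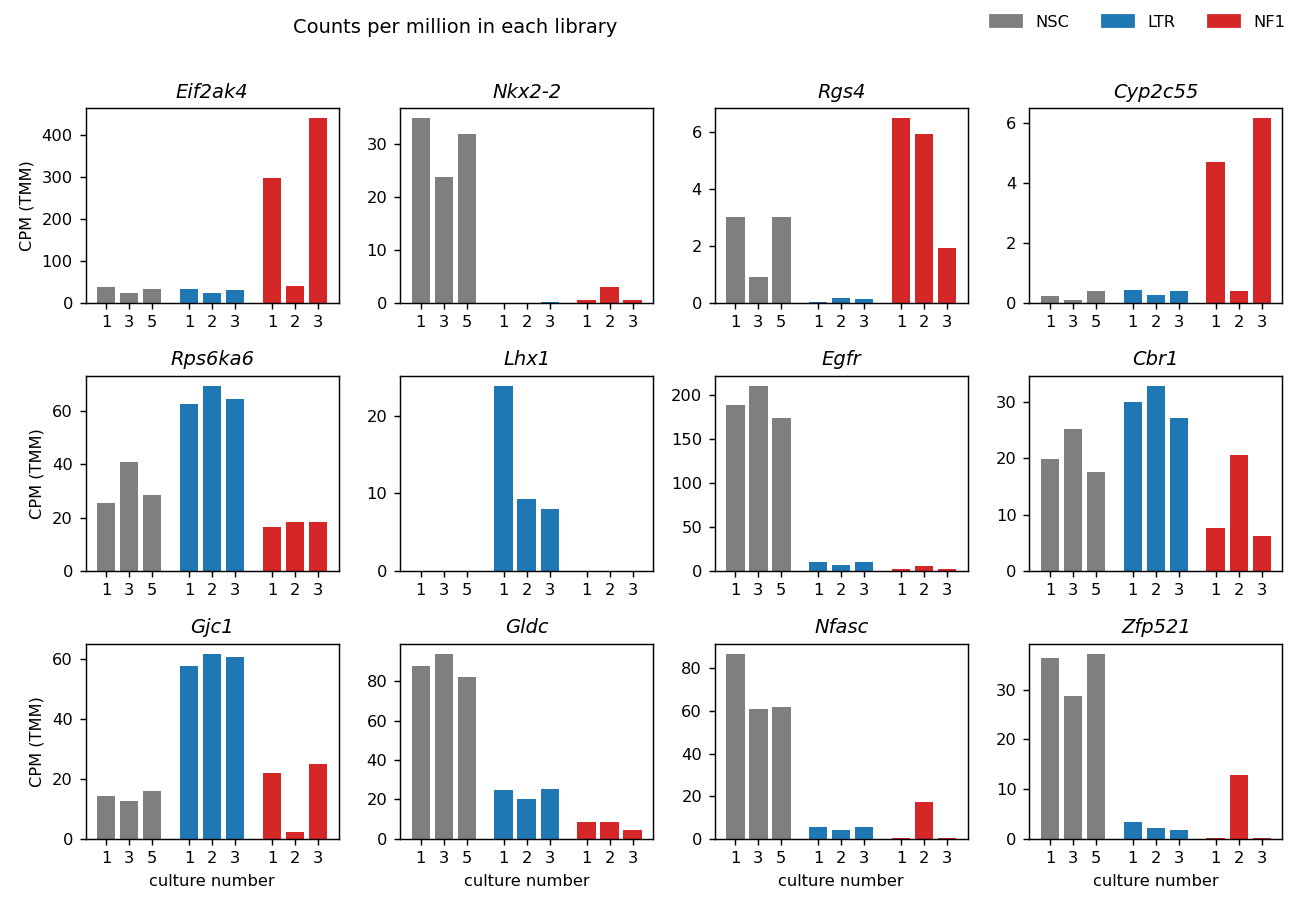
CPM of 12 called genes in each of the 9 libraries (grey NSC, blue LTR, red NF1), 1 bar per library, each panel on its own axis from 0. Rps6ka6 and Lhx1 were lower in all 3 NF1 cultures than in any LTR culture, while NF1 2 lay near the LTR level for Eif2ak4 and above it for Nfasc and Zfp521.

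For 7 lower genes NF1 2 lay above the LTR range. Nfasc (chromosome 1, 132564690 to 132741797), a neuronal and glial adhesion molecule, measured 5.43, 4.08 and 5.61 CPM in LTR, 0.464, 17.1 and 0.273 CPM in NF1 and 61.0 to 86.9 CPM in NSC. Its log2 fold change was -3.74 ± 0.35 without NF1 2 (adjusted p = 0.00753) and 0.23 ± 1.13 with it (adjusted p = 0.967). Zfp521 (chromosome 18, 13687013 to 13972787), a zinc finger factor of neural progenitors, measured 1.82 to 3.29 CPM in LTR and 0.174, 12.9 and 0.137 CPM in NF1 (-3.91 ± 0.42, adjusted p = 0.0199, against 0.87 ± 1.26, adjusted p = 0.857). Over the alternatives the adjusted p ran from 2.72e-16 to 1.0 for Nfasc and from 2.16e-09 to 1.0 for Zfp521.

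Cdh10, a type II cadherin, had no count in NF1 1 and NF1 3, 3.01 CPM in NF1 2, 0.326 to 0.954 CPM in LTR and 13.1 to 15.8 CPM in NSC. Against the floor it was at least 13.3-fold lower in NF1 1 and NF1 3 than in LTR (adjusted p = 0.0483 without NF1 2 and 0.904 with it, range 0.000841 to 1.0). The others of this kind were Tnfrsf10b, a death receptor and p53 target, with Cend1, Shisa6 and Ppp1r3b. Except for Shisa6, the NSC libraries were above all tumour libraries in these genes. Robo1 (chromosome 16, 72308306 to 73046095), a receptor for Slit guidance cues, came close to this pattern with 5.42 to 6.38 CPM in LTR and 0.811, 4.77 and 0.341 CPM in NF1 (-3.31 ± 0.37 without NF1 2, adjusted p = 0.0216, and -1.56 ± 0.74 with it, adjusted p = 0.518, range 3.32e-17 to 1.0).

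The remaining 10 lower genes were low in NF1 1 and NF1 3 and closer to LTR in NF1 2. Ltbr, the lymphotoxin β receptor, measured 38.4, 40.1 and 28.7 CPM in LTR and 10.3, 28.9 and 12.9 CPM in NF1, so that NF1 2 lay at the lower edge of LTR (-1.62 ± 0.23 without NF1 2, adjusted p = 0.0379, range 1.03e-07 to 1.0). Zc3hav1, the antiviral RNA-binding protein ZAP, measured 17.6 to 30.2 CPM in LTR and 4.93, 22.6 and 3.82 CPM in NF1. NF1 2 was within the LTR range. Frk, a tyrosine kinase of the Src class, measured 5.38 to 9.73 CPM in LTR and 0.869, 3.46 and 0.273 CPM in NF1, without overlap. Ctnna2, the neural α-catenin, measured 2.27 to 3.85 CPM in LTR, 0.609, 3.43 and 0.273 CPM in NF1 and 25.03 to 35.1 CPM in NSC. Acpp, an acid phosphatase, had 10.1 to 20.4 CPM in LTR and 2.26, 13.8 and 1.16 CPM in NF1. Lrrc8e, a subunit of volume-regulated anion channels, had 4.30 to 4.90 CPM in LTR and 0.145, 1.12 and 0.068 CPM in NF1, and Dleu7 3.59 to 11.1 CPM and 0.203, 1.02 and 0.205 CPM. Mks1, a gene of the ciliary transition zone, and C330018D20Rik were also among them.

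**Figure D4:**
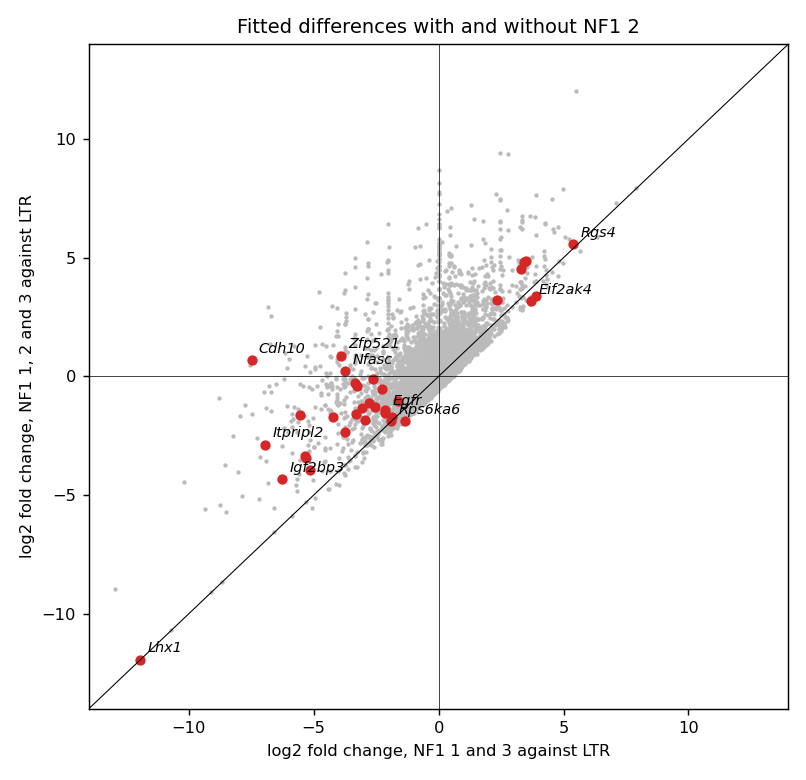
Fitted log2 fold change of each tested gene (grey points) with all 3 NF1 cultures on the vertical axis and with NF1 1 and NF1 3 alone on the horizontal axis. Red points are the 34 genes called without NF1 2. Lhx1, Rgs4 and Rps6ka6 lie near the diagonal, and Nfasc, Zfp521 and Cdh10 change sign between the axes.

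MAP kinase output and feedback genes, the readout common to Nf1 loss and Ras, had 0 of 25 tested members passing with or without NF1 2, and a median log2 fold change of 0.30 and 0.08 (0.06 and 0 over all genes). Their summed level was 2110, 2670 and 2660 CPM in LTR and 2760, 3360 and 2640 CPM in NF1. Dusp6, the ERK phosphatase, measured 212, 162 and 189 CPM in LTR and 195, 142 and 176 CPM in NF1. The groups overlapped, and the 95% interval of the difference ran from -0.62 to 0.35 on the log2 scale. Spry4, a feedback inhibitor of Ras activation, measured 70.4, 80.5 and 98.9 CPM in LTR and 96.6, 155 and 76.9 CPM in NF1 (interval -0.54 to 1.34). Etv4, an ETS factor induced by ERK, differed by -0.21 (interval -0.65 to 0.24) and Spred1, the partner that brings neurofibromin to the membrane, by 0.09 (interval -0.43 to 0.60). Areg, an EGF receptor ligand, was present in both tumour groups at 27.2 to 70.8 CPM in LTR and 34.4 to 53.8 CPM in NF1, against 0.253 to 0.402 CPM in NSC. Emp1, a membrane protein and the most abundant member, measured 285 to 549 CPM in LTR and 526.5, 432 and 611 CPM in NF1. A p above the threshold does not show that these levels were the same.

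Of 31 tested receptor tyrosine kinases only Egfr passed without NF1 2, beside 0.208% of all genes, and 0 passed with it. Ror2, a receptor for Wnt5a, had 1.48, 1.30 and 2.42 CPM in LTR and 0.058, 0.192 and 0 CPM in NF1 (-4.31 ± 0.90, adjusted p = 0.22, and 0.0689 without NF1 2). It was called by DESeq2 (adjusted p = 7.3e-05, range 7.3e-05 to 0.631). Axl, the receptor for Gas6, was close to even within groups, at 326 to 366 CPM in LTR and 409 to 417 CPM in NF1, without overlap (0.26 ± 0.25, adjusted p = 0.761). Of 31 tested members of the ligand list 0 passed with or without NF1 2. Fgf13, a gene of the FGF family whose action as a receptor ligand was not tested, measured 18.9, 7.78 and 3.05 CPM in LTR and 0.493, 1.67 and 0.341 CPM in NF1 (-3.57 ± 0.80, adjusted p = 0.239, DESeq2 0.000138, range 2.51e-08 to 0.714). Fgf7, a ligand of epithelial FGF receptors, was high in NF1 1 and NF1 3 with 10.5 and 8.60 CPM, at 0.064 CPM in NF1 2 and at 0.504 to 1.05 CPM in LTR (3.65 ± 0.63 without NF1 2, adjusted p = 0.0654, range 7.08e-07 to 1.0). Hbegf, an EGF receptor ligand induced by Ras, measured 99.0 to 199 CPM in LTR and 171, 375 and 184 CPM in NF1 (0.64 ± 0.37, adjusted p = 0.606).

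Cell cycle genes had close summed levels in 5 of the 6 libraries and a low one in NF1 2. The 32 G1/S and DNA replication genes summed to 5420, 5230 and 5600 CPM in LTR, 5580 and 5360 CPM in NF1 1 and NF1 3 and 2180 CPM in NF1 2, which was the lowest of the 6 libraries for 31 of them. NSC libraries had 3260 to 4300 CPM. The 25 G2/M and mitosis genes summed to 5090 to 5240 CPM in LTR, 5380 and 4940 CPM in NF1 1 and NF1 3 and 1740 CPM in NF1 2, the lowest for all 25, against 2730 to 3320 CPM in NSC.

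Cdk1, the mitotic kinase, measured 455, 541 and 489 CPM in LTR and 464, 109 and 598 CPM in NF1. Pcna, the sliding clamp of DNA replication, had 355 to 400 CPM in LTR and 441, 149 and 514 CPM in NF1. Top2a, the mitotic topoisomerase, measured 603 to 903 CPM in LTR and 739, 297 and 490 CPM in NF1 (-0.65 ± 0.32, adjusted p = 0.529). Rrm1, a subunit of ribonucleotide reductase, measured 495 to 551 CPM in LTR and 515, 205 and 430 CPM in NF1. NF1 2 was the lowest library in each of these genes. Mcm3, a subunit of the replicative helicase, lay below LTR in every NF1 library, at 293, 94.6 and 257 CPM against 328 to 346 CPM (-0.65 ± 0.35, adjusted p = 0.573). No member of either list passed with or without NF1 2, and the list medians moved from -0.33 and -0.34 to -0.01 and 0.03 without it.

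Genes activated by p53 showed the opposite order. The 29 members summed to 1550, 1210 and 1350 CPM in LTR, 1330 and 1260 CPM in NF1 1 and NF1 3 and 2630 CPM in NF1 2, near the 2710 to 3600 CPM of NSC. NF1 2 was the highest of the 6 libraries for 21 of the 29. Ccng1, an abundant target, measured 188, 104 and 142 CPM in LTR and 176, 651 and 136 CPM in NF1, and Cdkn1a, which encodes the inhibitor p21, 57.0 to 72.0 CPM in LTR and 65.8, 189 and 42.6 CPM in NF1. NSC had 546 to 736 and 237 to 574 CPM. Mdm2, the ubiquitin ligase for p53, differed little among the NF1 libraries, at 182, 206 and 161 CPM. The 1 called member of the 29, beside 0.208% of all genes, was Tnfrsf10b, lower without NF1 2 (-2.63, adjusted p = 0.0483, and -0.13 with NF1 2, adjusted p = 0.979, range 6.68e-08 to 1.0).

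Among 15 cyclin D, INK4 and RB family genes, none passed with or without NF1 2. Cdkn2a, which encodes the inhibitors p16 and p19ARF, measured 436, 951 and 442 CPM in LTR, 269.8, 167 and 379.8 CPM in NF1 and 53.8 to 59.95 CPM in NSC. Each NF1 library lay below each LTR library (-1.16 ± 0.37, adjusted p = 0.379, range 0.0311 to 1.0). Cdkn1c, which encodes the inhibitor p57 and overlaps Gm44732, measured 2.16, 3.51 and 2.75 CPM in LTR and 0.406, 0.384 and 0.853 CPM in NF1 (-2.35 ± 0.54, adjusted p = 0.25), and was called by DESeq2 (adjusted p = 0.0045, range 0.00286 to 0.926). Ccnd2 measured 134 to 165 CPM in LTR, 111 and 149 CPM in NF1 1 and NF1 3 and 891 CPM in NF1 2, with 1827 to 2527 CPM in NSC. Ccnd1, the most abundant D cyclin, which overlaps LTO1, had 701 to 1124 CPM in LTR and 1195, 2259 and 880 CPM in NF1 (0.59 ± 0.37, adjusted p = 0.633).

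**Figure D5:**
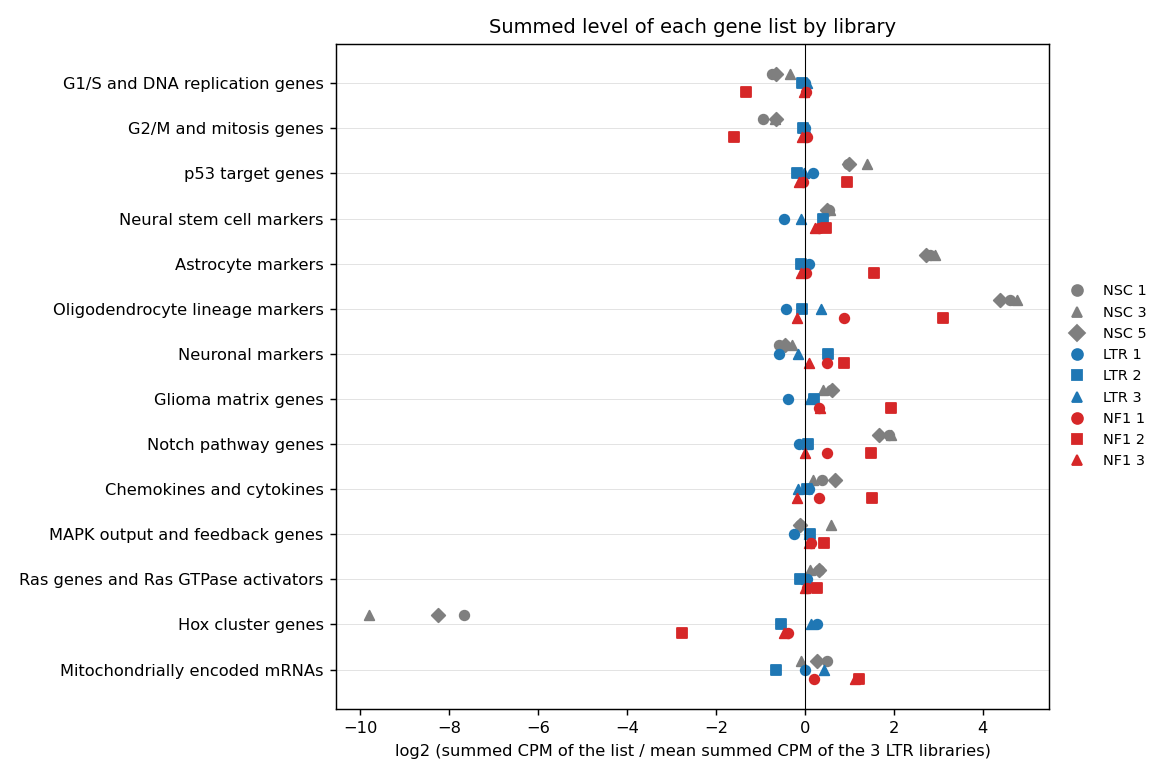
Summed CPM of 14 gene lists in each of 9 libraries, as log2 ratio to the mean of the 3 LTR libraries (1 point per library, colour for the group and shape for the culture number). NF1 2 lies below every other tumour library for both cell cycle lists and above them for p53 targets, astrocyte and oligodendrocyte lineage markers.

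Among neural stem cell markers, Sox2, a transcription factor of neural progenitors, measured 179, 276 and 244 CPM in LTR and 331, 259 and 284 CPM in NF1, with 307 to 358 CPM in NSC. Vim, the intermediate filament vimentin, was the most abundant marker, at 6073 to 11410 CPM in LTR and 10040 to 10710 CPM in NF1. Of 22 tested markers 0 passed with or without NF1 2, and DESeq2 called 2 higher and 1 lower, beside 1.26% and 0.841% of all genes. Slc1a3, which encodes the glutamate transporter GLAST, had at most 0.114 CPM in LTR, 0.174, 4.77 and 0.341 CPM in NF1 and 660 CPM or more in NSC (adjusted p = 0.346). Fut4 lay at 2.14 to 6.91 CPM in LTR and 0.985 to 1.44 CPM in NF1 (adjusted p = 0.294, DESeq2 0.00461, range 0.00461 to 0.972).

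Astrocyte markers summed to 727, 635 and 671 CPM in LTR, 686 and 639 CPM in NF1 1 and NF1 3, 1980 CPM in NF1 2 and 4510 to 5200 CPM in NSC. NF1 2 was the highest of the 6 for 16 of 17 tested members. Aldh1l1, the folate enzyme used as an astrocyte marker, measured 38.6 to 75.9 CPM in LTR and 56.1, 522 and 46.6 CPM in NF1, and Gfap, the glial intermediate filament, 0.207 to 1.26 CPM in LTR and 1.33, 22.3 and 0.341 CPM in NF1. Without NF1 2 the median of the list moved from 1.32 to 0.28, and 0 members passed either way.

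Oligodendrocyte lineage markers summed to 146, 190 and 253 CPM in LTR, 361 and 173 CPM in NF1 1 and NF1 3, 1690 CPM in NF1 2 and 4150 to 5370 CPM in NSC. Olig1 measured 48.7 to 104 CPM in LTR and 154, 840 and 61.3 CPM in NF1, and Olig2, its partner transcription factor, 43.7 to 90.0 CPM in LTR and 131, 319 and 51.5 CPM in NF1. In both genes NF1 3 lay within the LTR range. Cspg4, which encodes the progenitor antigen NG2, was above LTR in all 3 NF1 cultures, at 4.17, 8.77 and 4.57 CPM against 1.34 to 2.56 CPM (1.70 ± 0.38, adjusted p = 0.239, and 0.162 without NF1 2). It was called by DESeq2 (adjusted p = 0.00332, range 0.00332 to 1.0). With Nkx2-2, 1 of 12 tested members passed without NF1 2, beside 0.208% of all genes.

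Neuronal markers summed to 801, 1710 and 1070 CPM in LTR and 1680, 2200 and 1280 CPM in NF1. Nefl, a neurofilament subunit that overlaps Nefm, was the most abundant, at 231, 615 and 372 CPM in LTR and 709, 915 and 508 CPM in NF1. Elavl4, a neuronal RNA-binding protein, was below LTR in all NF1 libraries, at 0.493, 0.864 and 1.13 CPM against 3.59 to 5.58 CPM (-2.47 ± 0.50, adjusted p = 0.205, DESeq2 0.000144, range 0.000144 to 0.714). Gad2, an enzyme of GABA synthesis, was above it at 29.8, 21.8 and 16.5 CPM against 2.46 to 5.79 CPM (2.33, adjusted p = 0.345, DESeq2 0.0294, range 0.00383 to 1.0), and Dlx2, a factor of GABAergic progenitors, at 14.9, 9.80 and 16.3 CPM against 4.63 to 8.62 CPM (1.16, adjusted p = 0.338). None of 17 tested markers passed with or without NF1 2.

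Defining markers of other brain cell types were mostly near 0. Of 15 microglia and myeloid markers, 5 had enough counts to be tested and 0 passed. The summed level was 40.8 to 41.6 CPM in LTR and 45.6, 63.8 and 46.1 CPM in NF1, while Cx3cr1, Itgam, Trem2, Tyrobp, C1qa, C1qb and C1qc were at 0 in all 6 libraries. Endothelial markers summed to 38.0 to 49.0 CPM in LTR and 50.7, 171 and 33.2 CPM in NF1. The VEGF receptor gene Flt1 held most of that, with 155 CPM in NF1 2, while Cldn5 and Tie1 were at 0 in all 6. Ependymal markers summed to 6.40 to 7.34 CPM in LTR and 6.87, 17.6 and 8.16 CPM in NF1, against 111 to 244 CPM in NSC. Foxj1, the ciliogenesis factor, had 0.448 to 0.534 CPM in LTR and 0.493, 5.64 and 0.239 CPM in NF1. Krt8, a simple epithelial keratin that overlaps Gm36026, had 0.448 to 1.36 CPM in LTR and 0.064 to 0.29 CPM in NF1. Epithelial markers summed to 2.75 to 8.43 CPM in LTR and 1.19, 2.37 and 0.887 CPM in NF1, with Krt14 at 0. Of these 3 lists 7, 9 and 2 members were tested and 0 passed with or without NF1 2.

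Mural cell and fibroblast markers, by contrast, varied among the LTR cultures. Their sum was 169, 67.0 and 34.1 CPM in LTR 1, 2 and 3 and 18.9, 69.6 and 19.5 CPM in NF1 1, 2 and 3, with 405 to 2660 CPM in NSC. Col3a1, a fibrillar collagen that overlaps Gm47302, measured 152, 30.4 and 16.4 CPM in LTR against 4.84, 1.15 and 8.12 CPM in NF1 (-3.82 ± 1.07, adjusted p = 0.338, DESeq2 0.00419, range 0.00419 to 0.939). Acta2, smooth muscle actin, had 0.208, 2.44 and 0.239 CPM in LTR, 0, 0.16 and 0 CPM in NF1 and 165 to 918 CPM in NSC (adjusted p = 0.419). The pericyte marker Rgs5 measured 38.4 CPM in NF1 2 and at most 0.261 CPM in the other 5, and had too few counts to be tested. Lum, Fap and Abcc9 were at 0 in all 6 libraries. The part of other cell types in the differences was not tested. Fewer cells of a type and less RNA per cell cannot be told apart in bulk RNA.

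Of 44 semaphorins, plexins, Slit, Robo and netrin genes, Robo1 passed without NF1 2, beside 0.208% of all genes, and 0 passed with it. Sema7a (chromosome 9, 57940112 to 57962865), a membrane-anchored semaphorin, measured 23.7, 56.5 and 37.3 CPM in LTR and 12.4, 10.9 and 9.97 CPM in NF1. The NF1 libraries lay together below LTR (-1.82 ± 0.32, adjusted p = 0.191, 0.092 without NF1 2 and 3.24e-05 by DESeq2, range 3.24e-05 to 0.763). Nrp2, a co-receptor for semaphorins and VEGF, measured 35.4 to 46.4 CPM in LTR and 127.5, 411 and 50.5 CPM in NF1 (2.28, adjusted p = 0.345). Plxnb2, a plexin, measured 167 to 235 CPM in LTR and 229, 317 and 129 CPM in NF1.

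Of 19 tested Eph receptors and ephrins 0 passed with or without NF1 2. Epha2 measured 101 to 134.5 CPM in LTR and 130.4, 179.5 and 105 CPM in NF1 (0.20 ± 0.28, adjusted p = 0.853). Efnb2, an ephrin, measured 131 to 210.1 CPM in LTR and 237, 335 and 172 CPM in NF1 (0.63 ± 0.27, adjusted p = 0.478). Epha3 had 5.81, 0.267 and 0.567 CPM in LTR and 0, 0.128 and 0 CPM in NF1 (adjusted p = 0.334, DESeq2 0.00407, range 0.000335 to 0.919). In the list of EMT factors and cadherins, Cdh10 was the call without NF1 2 among 17 tested, beside 0.208% of all genes. S100a4, a calcium-binding protein of motile cells and the most abundant of these, spread widely within NF1, at 580.3, 101 and 1589 CPM against 358 to 810.5 CPM in LTR. Twist1, a mesenchymal transcription factor, was even within groups, at 23.3 to 25.5 CPM in LTR and 14.1, 14.3 and 15.3 CPM in NF1, so that the groups did not overlap (-0.74 ± 0.19, adjusted p = 0.333, DESeq2 0.00419, range 0.00419 to 1.0).

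Ligands and receptors of the Notch, Wnt and TGF-beta pathways had no member passing with or without NF1 2, of 20, 31 and 30 tested. Jag2, a Notch ligand, measured 4.08 to 6.06 CPM in LTR and 0.869, 1.31 and 0.41 CPM in NF1 (-2.62 ± 0.56, adjusted p = 0.221, DESeq2 0.000138, range 5.88e-06 to 0.763). Notch1, the receptor, measured 26.0 to 38.5 CPM in LTR and 69.6, 206 and 27.6 CPM in NF1, so that NF1 3 lay in the LTR range. Wnt7b, a Wnt ligand, measured 293.5 to 346 CPM in LTR and 421, 737 and 308 CPM in NF1 (0.63 ± 0.36, adjusted p = 0.594). Sfrp1 (chromosome 8, 23411502 to 23449632), a secreted Wnt antagonist, was above LTR in all NF1 libraries, at 4.93, 21.5 and 4.68 CPM against 0.415 to 1.64 CPM (3.27 ± 0.69, adjusted p = 0.22, 0.0848 without NF1 2 and 0.000138 by DESeq2, range 0.000118 to 0.636).

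Tgfb2, a TGF-beta ligand that overlaps Gm29491, measured 6.55 to 8.51 CPM in LTR and 26.7, 72.9 and 14.8 CPM in NF1. Each NF1 library was above LTR (2.38 ± 0.53, adjusted p = 0.239, 0.114 without NF1 2 and 0.00144 by DESeq2, range 0.00144 to 0.913). Bmpr1b, a BMP receptor, measured 2.19 to 2.99 CPM in LTR and 0.174, 0.96 and 0.649 CPM in NF1 (-2.06, adjusted p = 0.338, DESeq2 0.0112, range 0.000419 to 1.0). Ltbp1, which binds latent TGF-beta, measured 191 to 197 CPM in LTR and 261, 239 and 193 CPM in NF1.

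Glioma matrix genes summed to 3680, 5540 and 5190 CPM in LTR, 6000 and 6110 CPM in NF1 1 and NF1 3 and 18400 CPM in NF1 2. Spp1, which encodes the secreted ligand osteopontin and overlaps Gm42793, measured 1827, 2651 and 2431 CPM in LTR and 3405, 9375 and 3644 CPM in NF1. All 3 NF1 cultures were above LTR, and the difference did not pass (1.25 ± 0.42, adjusted p = 0.384, or 0.62 when NF1 2 is left out, adjusted p = 0.57, range 0.0673 to 1.0). Tnc, the matrix protein tenascin-C, measured 447 to 1115 CPM in LTR, 583 and 397 CPM in NF1 1 and NF1 3 and 5973 CPM in NF1 2. Vcan, the proteoglycan versican, was below LTR in every NF1 library, at 45.0, 52.7 and 30.3 CPM against 75.1 to 179.9 CPM (-1.46 ± 0.42, adjusted p = 0.338, range 0.0149 to 1.0).

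Mmp14 (chromosome 14, 54431612 to 54445364), a membrane-bound protease that activates other matrix proteases, measured 35.2, 42.4 and 40.3 CPM in LTR and 108, 148 and 62.5 CPM in NF1. The groups did not overlap (1.43 ± 0.28, adjusted p = 0.205, 0.103 without NF1 2 and 0.000912 by DESeq2, range 0.000912 to 1.0). Timp4, an inhibitor of such proteases that overlaps Syn2, had at most 0.09 CPM in LTR and 0.696, 2.31 and 0.341 CPM in NF1 (4.61 ± 0.91, adjusted p = 0.205, DESeq2 0.000299, range 0.000299 to 0.779). Of 24 tested members of the protease list, 24 collagens and 27 integrins and laminins, 0 passed with or without NF1 2. The most abundant members overlapped between the groups: Col18a1, the collagen that holds endostatin, Itgb1, the β1 integrin, and Timp1, a protease inhibitor, differed by 0.21, -0.05 and 0.17 (adjusted p = 0.869, 0.958 and 0.921). Lama2, a laminin chain, measured 0.148 to 0.191 CPM in LTR and 0.869, 2.95 and 0.614 CPM in NF1 (3.08, adjusted p = 0.323, DESeq2 0.0066, range 0.0066 to 0.926).

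The lists of interferon-stimulated genes, MHC class I presentation genes, and chemokines and cytokines had no calls with or without NF1 2. Ltbr and Zc3hav1, called without NF1 2 as given above, lay outside these lists. Of 26 interferon-stimulated genes, 7 lay below LTR without overlap and 0 above it, beside 5.24% and 7.21% of all genes, and the sum was 152 to 212 CPM in LTR and 131, 121 and 149 CPM in NF1. Usp18, a negative regulator of interferon signalling, measured 3.17 to 5.68 CPM in LTR and 1.77, 1.76 and 1.26 CPM in NF1 (-1.36, adjusted p = 0.384). Ifitm3, a membrane protein that restricts viral entry, had 75.7, 35.0 and 31.6 CPM in LTR and 14.1, 27.3 and 27.0 CPM in NF1 (-1.06 ± 0.47, adjusted p = 0.489). MHC class I presentation genes (14 tested) summed to 1900 to 2600 CPM in LTR and 2720, 4070 and 3010 CPM in NF1, so that each NF1 library was above LTR. Calr, the chaperone calreticulin, had 699.9 to 1318 CPM in LTR and 1288, 2387 and 1562 CPM in NF1 (0.80, adjusted p = 0.428). Among 16 tested chemokines and cytokines, Il33 was high in LTR 1 alone, at 102 CPM against 5.72 and 3.43 CPM in LTR 2 and 3 and 0.29 to 1.6 CPM in NF1 (-5.55, adjusted p = 0.296). Cx3cl1, the chemokine fractalkine, measured 82.8 to 129.8 CPM in LTR and 182, 63.5 and 88.9 CPM in NF1.

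The glycolysis, cholesterol and mitochondrial lists had 0 calls with or without NF1 2. Slc16a3, the lactate exporter MCT4, was the one of 24 glycolysis and hypoxia genes at an unadjusted p under 0.05, with 3.53, 17.1 and 11.6 CPM in LTR and 1.86, 1.63 and 0.887 CPM in NF1 (-2.87 ± 0.58, adjusted p = 0.205, DESeq2 0.000106, range 0.000106 to 0.714). Pkm, the glycolytic pyruvate kinase, was abundant in both groups, at 3389 to 4545 CPM in LTR and 3135 to 3823 CPM in NF1. Lss, an enzyme of sterol synthesis, measured 265 to 283 CPM in LTR and 182, 156 and 189 CPM in NF1 (-0.65, adjusted p = 0.338), and 22 cholesterol synthesis genes had a median of -0.20. Hmgcs1, an early enzyme of that pathway, differed by -0.23 ± 0.24 (adjusted p = 0.787). Mitochondrially encoded mRNAs summed to 11000, 6970 and 14700 CPM in LTR and 12500, 25400 and 24000 CPM in NF1, so that NF1 2 and NF1 3 were high and NF1 1 lay within LTR. The oxidase subunit mt-Co1 measured 4360, 1854 and 5393 CPM in LTR and 4060, 8961 and 7439 CPM in NF1 (0.82 ± 0.42, adjusted p = 0.553). None of 18 immediate early and heat shock genes passed, and the median of that list was 0.03. Hspa8, a constitutive chaperone, measured 745 to 1397 CPM in LTR and 799 to 1053 CPM in NF1.

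Genes of the Hox clusters, which are silent in NSC with summed levels of at most 0.159 CPM, summed to 38.9, 22.2 and 35.9 CPM in LTR and 24.8, 4.74 and 23.3 CPM in NF1. Hoxa5 measured 7.67 to 11.2 CPM in LTR and 5.27, 1.41 and 4.78 CPM in NF1 (-1.35 ± 0.79, adjusted p = 0.609). Hoxd10 was found in NF1 1 and NF1 3 at 4.87 and 4.37 CPM, was at 0 in NF1 2 and had at most 0.297 CPM in LTR (4.78 without NF1 2, adjusted p = 0.101, range 1e-05 to 1.0). Of 10 tested Hox genes 0 passed with or without NF1 2. The oncofetal list had Igf2bp3 as its 1 call without NF1 2 among 5 tested, beside 0.208% of all genes. Hmga2 measured 499.9 to 781 CPM in LTR and 658 to 749 CPM in NF1. Hmga1 measured 637 to 654 CPM in LTR and 596 to 659 CPM in NF1.

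Of 20 tested imprinted genes 0 passed with or without NF1 2. Peg3 (chromosome 7, 6703892 to 6730431), a paternally expressed zinc finger gene, measured 12.3, 22.9 and 16.6 CPM in LTR and 73.8, 53.4 and 36.7 CPM in NF1. The groups did not overlap (1.66 ± 0.31, adjusted p = 0.205, 0.0888 without NF1 2 and 0.000366 by DESeq2, range 0.000366 to 0.926). Grb10, an adaptor that restrains insulin receptor signalling, measured 0.148, 4.5 and 0.119 CPM in LTR and 0.087, 0.032 and 0 CPM in NF1 (adjusted p = 0.379). Mest, the most abundant imprinted gene, which overlaps Copg2, measured 62.4 to 99.8 CPM in LTR and 184, 81.5 and 134 CPM in NF1 (0.64 ± 0.31, adjusted p = 0.525).

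Xist, the RNA of the inactive X, and Y-linked genes were read in the same libraries. Xist had 79.2 to 112 CPM in LTR and 84.4, 94.7 and 77.2 CPM in NF1. Eif2s3y, a Y-linked translation factor, measured 81.5, 78.0 and 94.4 CPM in LTR and 29.1, 59.0 and 23.8 CPM in NF1 (-1.18 ± 0.42, adjusted p = 0.407, or -1.67 when NF1 2 is left out, adjusted p = 0.136, range 0.00149 to 1.0). Ddx3y measured 25.1 to 49.3 CPM in LTR and 19.97, 65.9 and 13.9 CPM in NF1, Uty 12.1 to 21.9 CPM and 8.26, 27.6 and 5.91 CPM, and Kdm5d 1.07 to 10.3 CPM and 5.999, 18.7 and 4.16 CPM. All 6 libraries thus held both X-inactivation and Y-linked transcripts.

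The following values describe NF1 2 as 1 library, with no test. Among 10200 genes of at least 8 CPM, NF1 2 was at least 2-fold above the mean of NF1 1 and NF1 3 for 1378 and at least 2-fold below it for 964, or 23% together. The same share for each library against the mean of the other 2 of its group was 0.639% to 7.22% in LTR. It was 3.41% for NF1 1 and 14.6% for NF1 3, whose means include NF1 2. Among the 8 genes most above NF1 1 and NF1 3, Ptprz1, a receptor phosphatase of glial progenitors, measured 6.03, 387 and 0.956 CPM in NF1 1, 2 and 3, 0.267 to 2.18 CPM in LTR and 1319 CPM or more in NSC. Ednrb, an endothelin receptor of glial and neural crest cells, had 3.8, 294 and 0.887 CPM, Fabp7, the brain fatty acid binding protein, 4.96, 343 and 1.74 CPM, and Kcnj10, a glial potassium channel, 7.59, 255 and 1.16 CPM in NF1 1, 2 and 3. The others of these 8 were Fndc3c1, Pcdh10, Gnai1 and Cdh19.

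Among 131 genes with at least 10 CPM in each NSC library and under 1 CPM in LTR, NF1 1 and NF1 3, NF1 2 reached a median of 6.68% of the NSC mean (quartiles 2.6% and 21.5%), and 36 of them were under 1 CPM in NF1 2 too. The share was not the same from gene to gene: it ran from 0.141% to 227%. Of 8 genes with at least 10 CPM in the other tumour libraries and under 1 CPM in NSC, NF1 2 had a median of 48.6% of the NF1 1 and NF1 3 mean, with quartiles of 14.1% and 83.3% and a range of 4.44% to 3800%, so that they shared no common level. These sets were chosen after the values were seen.

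NF1 2 also held transcripts that were high in no other library, with 40 genes of at least 8 CPM and 4 times every other library, NSC included. Grem1, a secreted BMP antagonist, measured 15.1 to 34.7 CPM in LTR, 39.0 and 19.7 CPM in NF1 1 and NF1 3, 1115 CPM in NF1 2 and at most 0.578 CPM in NSC. Il11, a cytokine of the IL-6 family, measured 423 CPM in NF1 2 and at most 24.9 CPM elsewhere. Dll4, a Notch ligand, measured 104 CPM against at most 9.08 CPM, and Vgf, a neuropeptide precursor, 193 CPM against at most 46.9 CPM.

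The genes most below NF1 1 and NF1 3 in NF1 2 were led by Pcp4, a calmodulin-binding peptide that overlaps Igsf5, at 103, 0.48 and 107 CPM in NF1 1, 2 and 3 against 4.45 to 5.46 CPM in LTR (4.37 ± 0.81 without NF1 2, adjusted p = 0.0767, range 0.000129 to 1.0). Smoc2, a matricellular protein, had 19.1, 0.992 and 32.8 CPM in NF1 1, 2 and 3, with LTR libraries at 6.26 to 27.8 CPM. Fgf7, Car13, Pde3b and Klra4 were also among these 8. Calcb, which encodes a calcitonin gene-related peptide, and Tfpi, an inhibitor of coagulation, were above LTR in all NF1 cultures, with 29.8, 6.56 and 12.1 CPM against 0.623 to 2.52 CPM and 31.5, 14.9 and 31.7 CPM against 2.08 to 6.18 CPM (adjusted p = 0.239 and 0.313, DESeq2 0.000966 and 0.00619, ranges 2.66e-06 to 0.798 and 0.000565 to 0.956).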

How the data were processed

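RNA was sequenced from 9 cultures, and the authors' deposited table gives raw counts per gene. Per the labels' protocols, RNeasy Plus columns and NEBNext Ultra RNA chemistry were used. STAR 2.5.2a and HTSeq are named in the submitters' processing notes, with DESeq2 1.8.2 and the builds mm10 and GRCm38. Their settings are not stated there. Because this kit keeps no strand information, counts of overlapping genes, named beside the main genes, are uncertain.

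Of 47729 genes in the table, 47224 were matched by identifier to GENCODE M21 on GRCm38, from which coordinates were taken. The tests ran in edgeR 4.0.16 under R 4.3.3: TMM scaling, filterByExpr (minimum count 10, 15696 genes left), 1 model of the 3 groups over 9 libraries, the quasi-likelihood F test of NF1 against LTR, and Benjamini-Hochberg adjustment over all genes with a threshold of 0.05. Every adjusted p is from this test unless another tool is named, and the fit without NF1 2 tested 16343 genes. Log2 fold changes are NF1 minus LTR ± SE, and CPM are TMM-scaled. Floors are 3 counts over the group, and intervals of counts cover counting error only. The p-values measure the spread between cultures. DESeq2 1.42.0 gave no adjusted p for 500 genes. The fits were also run on simulated counts, with 200 genes changed by a known fold in all NF1 libraries alike. At 2-fold, 0 of the 200 genes were called, with or without NF1 2. At 4-fold, 86.5% were called over 9 libraries and 91% without NF1 2. Differences near 2-fold could thus be missed by these fits. The changed genes had a tumour mean of at least 8 CPM, and no simulated library was made to stand apart as NF1 2 did. The shares at 4-fold therefore cannot be carried over to the real counts. There, larger fitted differences did not pass over 9 libraries either, such as that of Eif2ak4 (log2 fold change 3.18, edgeR adjusted p = 0.226).

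The comparison, the 39 gene lists (874 genes) and the naming rule were chosen with earlier results of these data known. Named were the genes of the labels with the Ras genes, the largest differences that pass with and without NF1 2 (none did) or only without it (up to 6 in each direction, at least 8 CPM in the higher group, no overlap), list members past the threshold or most abundant, the 8 genes most above and below NF1 1 and 3 in NF1 2, and Xist with 4 Y-linked genes. All other genes were named after their values were seen. Alternatives were DESeq2, limma-voom (limma 3.58.1) with and without quality weights, other scalings and filters, the 6 libraries alone, a replicate block, a test against a 2-fold threshold, and each library left out. Some genes that the rule names are not reported here.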

Additional observations from a re-analysis of the deposited data

How the results depend on the processing

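The counts of calls depended on the tool and on NF1 2. Against 0 genes higher and 0 lower by edgeR over 9 libraries, DESeq2 called 198 and 132 (179 and 122 at least 2-fold), the quality weights 540 and 517 (297 and 393), limma-voom 0 and 1, and no filter on low counts 29 and 23, all at least 2-fold. Leaving out 1 library at a time gave 0 to 7 genes higher and 0 to 27 lower: 7 and 27 without NF1 2, 0 and 1 without NSC 3, and 0 for each other library. The 6 libraries alone gave 0, and 7 and 18 without NF1 2. Of those 25 genes, 15 were among the 34 called without NF1 2 when NSC was kept in the fit. The other scalings, the stricter filter and the test against a 2-fold threshold gave 0. In 2 alternatives chosen after seeing the data, leaving out NF1 2 and NSC 3 together gave 28 and 76, and DESeq2 without NF1 2 gave 120 and 310 (100 and 296 at least 2-fold).

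The log2 fold change of Fndc3c1 turned to -3.17 with quality weights. The log2 fold change of Nfasc was -3.74 to 0.78 with 1 library left out, the lowest without NF1 2, and was -3.38 with quality weights, -3.76 for 6 libraries without NF1 2, -3.75 without NF1 2 and NSC 3, and -3.76 by DESeq2 without NF1 2. The log2 fold change of Zfp521 was -3.91 (without NF1 2) to 1.43, and was -3.26 with quality weights, -3.92 without NF1 2 and NSC 3, and -3.95 by DESeq2 without NF1 2. For these same settings the log2 fold change of Cdh10 was -7.48 to 1.27, -4.93, -7.38 and -6.74. Each value of these under -3 comes from a setting that leaves out or down-weights NF1 2. Negative values that did not pass also came from limma-voom (-1.92, -1.72 and -2.68 for Nfasc, Zfp521 and Cdh10) and from the replicate block over 9 libraries (-2.10, -1.84 and -1.65) or 6 (-2.27, -2.07 and -1.93), with NF1 2 kept, and the log2 fold change of Nfasc was -0.004 without LTR 2. Of 148 genes followed, 66 passed under at least 1 of 24 alternatives and 45 changed sign under some.

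A replicate block gave 0 calls over 9 or 6 libraries. The correlations of same-numbered deviations were 0.108, -0.004 and -0.165, and those of differently numbered ones ran from -0.105 to 0.112. Deviations were taken from group means that include NF1 2, so these values cannot decide whether the numbers pair the cultures.

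With 3 cultures a side, and 2 where NF1 2 is left out, genes under about 1 CPM rest on few counts. A floor of 3 counts equals 0.0869 to 0.114 CPM over these libraries.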
